A study of Homo sapiens with 42 samples.

Results

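The genes described here are ABCA12, SCN4B, SUGCT, PRAMEF12, NEURL2, UNC5B-AS1, PURPL, ALPP and GOLT1A, 9 of the 19775 genes measured in A375 cells, an established human melanoma line. They were chosen by measured values, their large rises with Nutlin or daunorubicin in cells carrying a control siRNA, so those rises are given below as a description, without a test. Each gene is represented by the probe set with its highest mean signal among those annotated to it alone. ABCA12 is measured by 215465_at, SCN4B by 236359_at, SUGCT by 219655_at, PRAMEF12 by 216001_at, NEURL2 by 230283_at, UNC5B-AS1 by 239136_at, PURPL by 1557765_at, ALPP by 204664_at and GOLT1A by 229372_at. ALPP has a second probe set, shared with its neighbour ALPG, and the other 8 genes have 1 probe set each.

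Expression was measured on 42 Affymetrix arrays, in 14 groups of 3. Cells were transfected for 48 hours with GL2 siRNA, directed at firefly luciferase and used as the control, or with siRNA against p53, CDT1 or BRCA1. They were then treated for 26 hours: GL2 and p53 siRNA cells with 5 uM Nutlin, 100 nM daunorubicin, 650 nM MLN4924 or 0.065% DMSO, and CDT1 and BRCA1 siRNA cells with MLN4924 or DMSO alone. For GL2 and for p53 siRNA there are 6 DMSO arrays in 2 sets of 3, called first and second here after their titles, and no label ties a set to a drug. All groups share the cell line and a transfection, no group is free of siRNA, and the labels do not call the replicates separate cultures, so p-values reflect array-to-array spread that may be technical only.

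The transcription factor p53 is held low in unstressed cells by the ubiquitin ligase MDM2 and binds paired copies of a short response element in its target genes. Nutlin blocks the binding of MDM2 to p53 and stabilises p53 without damaging DNA. Daunorubicin poisons topoisomerase II and breaks DNA, which activates p53 through damage kinases among much else. MLN4924 inhibits the enzyme that activates NEDD8 and so shuts off the cullin-RING ubiquitin ligases, which leads among other things to re-replication of DNA through the licensing factor CDT1. The genes have diverse products. PURPL is a long noncoding RNA named as a p53-induced regulator of p53 levels, and UNC5B-AS1 is a noncoding RNA antisense to UNC5B, a netrin receptor. ABCA12 is a lipid transporter of the epidermis, SCN4B an auxiliary subunit of voltage-gated sodium channels, and SUGCT a mitochondrial enzyme that passes coenzyme A to glutarate in the breakdown of lysine. PRAMEF12 belongs to the PRAME family of leucine-rich repeat proteins, of which PRAME is a tumour antigen. NEURL2 is an adaptor of a ubiquitin ligase known from muscle, ALPP the alkaline phosphatase of the placenta, and GOLT1A a membrane protein of vesicle transport to the Golgi.

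Promoter windows were examined for the p53 response element. PURPL and SUGCT were the members that most often passed the test in samples outside the stated selection rule. All 9 genes matched RefSeq promoter windows on GRCh38.p14, which run from 250 bases before to 50 bases after a transcription start. ABCA12 has 2 such windows, giving 10. The response element was searched by name, as 2 adjoining copies of its unit of 10 bases without a spacer, on both strands, with up to 3 mismatches and the core C and G of each copy kept. PURPL was the only member whose window held it, without a mismatch, from base -127 to base -108 relative to the start. The windows of PURPL and SUGCT follow 5′ to 3′, with the match in capitals, at chr5:27472042-27472341 on the plus strand and chr7:40134755-40135054 on the plus strand.
PURPL: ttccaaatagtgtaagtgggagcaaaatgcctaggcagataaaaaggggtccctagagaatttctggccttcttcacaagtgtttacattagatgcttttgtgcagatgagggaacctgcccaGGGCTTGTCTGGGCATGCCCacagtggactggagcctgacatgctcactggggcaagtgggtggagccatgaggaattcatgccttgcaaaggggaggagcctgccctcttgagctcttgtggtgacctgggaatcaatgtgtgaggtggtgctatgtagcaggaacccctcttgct
SUGCT: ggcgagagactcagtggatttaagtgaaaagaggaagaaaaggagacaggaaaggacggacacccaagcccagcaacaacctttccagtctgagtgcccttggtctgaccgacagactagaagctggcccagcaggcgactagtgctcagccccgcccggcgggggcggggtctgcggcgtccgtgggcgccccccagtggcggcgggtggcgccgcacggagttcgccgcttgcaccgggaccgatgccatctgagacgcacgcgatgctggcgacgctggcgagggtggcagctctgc
Of 35116 windows of this length over all RefSeq genes, 6 (0.0171%) held the element without a mismatch and 392 (1.12%) held it with up to 3. SUGCT and the other 7 members had no match in these windows. The letters CATG, the core of many copies of the unit and able to lie within the element, occurred in 6 of the 10 member windows and in 54.9% of all windows. A match describes the sequence, and neither a match nor its lack says whether the factor binds.

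All signals below are deposited signals on the linear scale, and all changes are differences of log2 signal after centring every array on its own median, ± the standard error of 1 limma fit with 28 residual degrees of freedom. The fit gives each gene 1 spread over all 14 groups, so a standard error does not follow the scatter of the groups compared. The median of all signals was 31.9, and a signal under it is called dim here, since the table has no detection calls. In DMSO the members were mostly dim: among the 6 arrays of the GL2 DMSO sets, only PRAMEF12 on 1 array of the first set (35.2) and SUGCT on 1 array of the second (39.9) exceeded 31.9. Folds from such low values depend on the array background, and a pseudocount of 16 lowered the median change of the members with Nutlin in GL2 cells from 4.66 to 2.44 and that with daunorubicin from 4.06 to 1.51. Scaling without centring moved the median change of all genes by 0.13 with Nutlin and 0.17 with daunorubicin in GL2 cells and by -0.40 with MLN4924 in p53 siRNA cells, its largest shift.

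Other measures of the series bear on these values. The transcript targeted by the p53 siRNA is not analysed here. CDKN1A, which encodes the p53-induced cell cycle inhibitor p21, was 2.31 ± 0.17 lower in p53 than in GL2 siRNA cells under DMSO (limma, adjusted p = 1.25e-10). In GL2 cells with MLN4924, BRCA1 read 23.7 on the library labelled replicate 3, against 209.6 and 263.6 in replicates 1 and 2. It read 256.7 on the library labelled replicate 3 of BRCA1 with MLN4924, against 27.3 and 35.8, so both go against their labels. CDT1 read 140.6 on this GL2 library, against 392.3 and 392.5, and 345.9 on this BRCA1 library, against 138.0 and 146.8. For both genes each library thus read nearer the other group. Whether the 2 libraries were exchanged was not tested, and they are kept as labelled. Replicate 1 of p53 siRNA with daunorubicin had 5′ probe signals that were 0.0118 of the 3′ signal for ACTB and 0.0509 for GAPDH, against 0.649 to 0.945 and 0.988 to 1.19 on the other 41 arrays. This library gives the first of the 3 signals printed below for that group. Changes of call without these 3 libraries are given below for the members, and for neighbours and relatives only where the call itself is printed. Of the melanocyte markers, SOX10 (median signal 1340), MITF (327) and S100B (365) were high, whereas 4 of the 8 measured, PMEL, MLANA, TYR and TYRP1, had median signals of 15.9 to 30.8. The summed signal of 5 leukocyte markers was 263 to 279 in the first GL2 DMSO set, 407 to 464 with Nutlin and 601 to 794 with daunorubicin. Its defining markers PTPRC and CD14 had medians of 5.95 and 1.85, LYZ and CD53 carried the sum, and the part of this rise in the results was not tested.

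The noncoding RNAs come first. PURPL had signals of 18.6, 12.5 and 12.2 in the first GL2 DMSO set, 245.2, 239.0 and 266.1 with Nutlin and 276.1, 256.0 and 251.0 with daunorubicin. All 6 drug arrays lay far above the control, and Nutlin and daunorubicin arrays overlapped, with changes of 4.02 ± 0.35 and 4.03 ± 0.35. In p53 siRNA cells PURPL read 9.5, 6.5 and 7.4 with DMSO, 16.1, 13.8 and 17.4 with Nutlin and 34.1, 20.7 and 31.7 with daunorubicin. These treated arrays stayed below every treated GL2 array, yet above their own control. UNC5B-AS1 lay at 0.9, 2.8 and 1.4 in the first GL2 DMSO set, rose to 52.5, 36.0 and 46.7 with Nutlin and read 29.9, 14.8 and 6.8 with daunorubicin. Its Nutlin arrays were all above its daunorubicin arrays, by a log2 difference of 1.67 ± 0.59. In p53 siRNA cells it stayed between 1.2 and 2.6 with DMSO of the first set or Nutlin and reached 8.0, 2.6 and 3.6 with daunorubicin. The GL2 change with daunorubicin was 3.07 ± 0.59, and 3.66 without replicate 3, the array at 6.8.

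Among the transporters and channel subunits, ABCA12 had the largest log2 rise of all genes with each drug in GL2 cells against the first DMSO set. Its signals of 3.1, 0.2 and 0.9 with DMSO became 87.8, 82.8 and 84.8 with Nutlin and 59.0, 45.0 and 50.8 with daunorubicin. The changes of 6.57 ± 0.70 and 5.79 ± 0.70 rest on a control near 0: without the DMSO array at 0.2 they were 5.55 and 4.77, and without the array at 3.1 they were 7.52 and 6.74. Against the second DMSO set they were 5.44 and 4.66, below those of SUGCT (5.72 and 5.24), and with a pseudocount of 16 they were 2.44 and 1.82, again below SUGCT (3.93 and 3.48). In p53 siRNA cells ABCA12 read 5.5, 3.8 and 8.6 with DMSO, 7.7, 8.8 and 7.5 with Nutlin and 8.8, 5.3 and 8.2 with daunorubicin, so these groups overlapped. SCN4B went from 3.0, 2.9 and 1.3 in the first GL2 DMSO set to 52.3, 73.0 and 74.9 with Nutlin and 61.7, 56.8 and 60.9 with daunorubicin. The treated groups overlapped each other and lay wholly above the control, at changes of 4.75 ± 0.64 and 4.56 ± 0.64. Under p53 siRNA its signals were 0.9, 1.2 and 1.6 with DMSO, 1.4, 3.0 and 5.2 with Nutlin and 9.0, 4.7 and 2.7 with daunorubicin, all far under the treated GL2 arrays.

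The enzymes SUGCT and ALPP differed in what raised them. SUGCT read 31.2, 23.1 and 29.4 in the first GL2 DMSO set, 626.3, 824.8 and 668.1 with Nutlin and 668.3, 477.5 and 442.5 with daunorubicin, changes of 4.54 ± 0.48 and 4.06 ± 0.48, or 5.72 and 5.24 against the second DMSO set. Under p53 siRNA its signals went from 23.1, 21.8 and 17.1 to 11.7, 9.7 and 6.3 with Nutlin, below its control on every array, and to 53.9, 40.2 and 41.5 with daunorubicin, above it on every array. ALPP stayed at 1.6, 1.9 and 1.6 with Nutlin in GL2 cells against 1.2, 1.0 and 1.1 with DMSO. These groups do not overlap, and the change was 0.50 ± 0.84, ranked 3661 of all genes. That standard error uses the spread of ALPP over all groups, whereas the SD of log2 signal was 0.123 in each of these groups. All these signals are dim, and with a pseudocount of 16 the change was -0.05, so a rise of ALPP with Nutlin is not borne out. Daunorubicin gave 51.2, 33.9 and 6.5, a change of 4.18 ± 0.84 that was 3.56 without replicate 1 and 5.12 without replicate 3. With p53 siRNA, ALPP read 0.9, 1.4 and 1.0 with DMSO, 1.1, 1.2 and 1.1 with Nutlin and 1.1, 1.9 and 3.1 with daunorubicin. The probe set that ALPP shares with ALPG read 12.1, 1.4 and 1.6 in the first GL2 DMSO set and 22.2, 7.2 and 2.7 with daunorubicin, which overlap.

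PRAMEF12 and NEURL2 rose more with Nutlin than with daunorubicin. PRAMEF12 read 7.2, 35.2 and 20.2 in the first GL2 DMSO set, 571.0, 582.4 and 523.3 with Nutlin and 85.9, 51.8 and 96.3 with daunorubicin. Its Nutlin arrays were 7.65 times its daunorubicin arrays (log2 difference 2.94 ± 0.56), without overlap. NEURL2 went from 26.5, 10.5 and 23.6 to 486.3, 539.5 and 521.5 with Nutlin and to 113.4, 89.9 and 84.4 with daunorubicin, again without overlap between the drugs (2.48 ± 0.43). The changes of PRAMEF12 were 4.89 ± 0.56 and 1.96 ± 0.56, or 4.26 and 1.32 without DMSO replicate 1, and those of NEURL2 4.66 ± 0.43 and 2.17 ± 0.43. With p53 siRNA, Nutlin gave 24.9, 33.3 and 29.8 for PRAMEF12 against 9.9, 21.1 and 25.8 with DMSO, and daunorubicin gave 16.8, 21.4 and 47.9. NEURL2 there read 33, 24.7 and 22.4 against 19.4, 13 and 18.4, and daunorubicin gave 28.0, 33 and 32.5, so both drugs left every array above the control and far below the treated GL2 arrays.

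GOLT1A, the vesicle transport gene, read 0.8, 5.0 and 1.8 in the first GL2 DMSO set, 38.2, 31.4 and 31.3 with Nutlin and 32.3, 41.2 and 44.7 with daunorubicin. Its changes of 3.99 ± 0.76 and 4.17 ± 0.76 were 3.35 and 3.52 without DMSO replicate 1, 4.68 and 4.85 without replicate 2, and 2.30 and 2.48 against the second DMSO set. Its p53 siRNA DMSO signals were 12.3, 5.2 and 16.1, Nutlin gave 11.6, 7.9 and 1.7, and daunorubicin gave 34.2, 16.3 and 35.7, 2 of which fall inside the range of the daunorubicin-treated GL2 arrays. The array at 34.2 is replicate 1, the library with the low 5′ to 3′ ratio. With p53 siRNA the log2 change of GOLT1A with daunorubicin was 1.35 ± 0.76 against the first DMSO set but 3.19 against the second. GL2 cells gave 2.48 against the second set, so the DMSO set decides in which cells GOLT1A rose more.

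**Figure D1:**
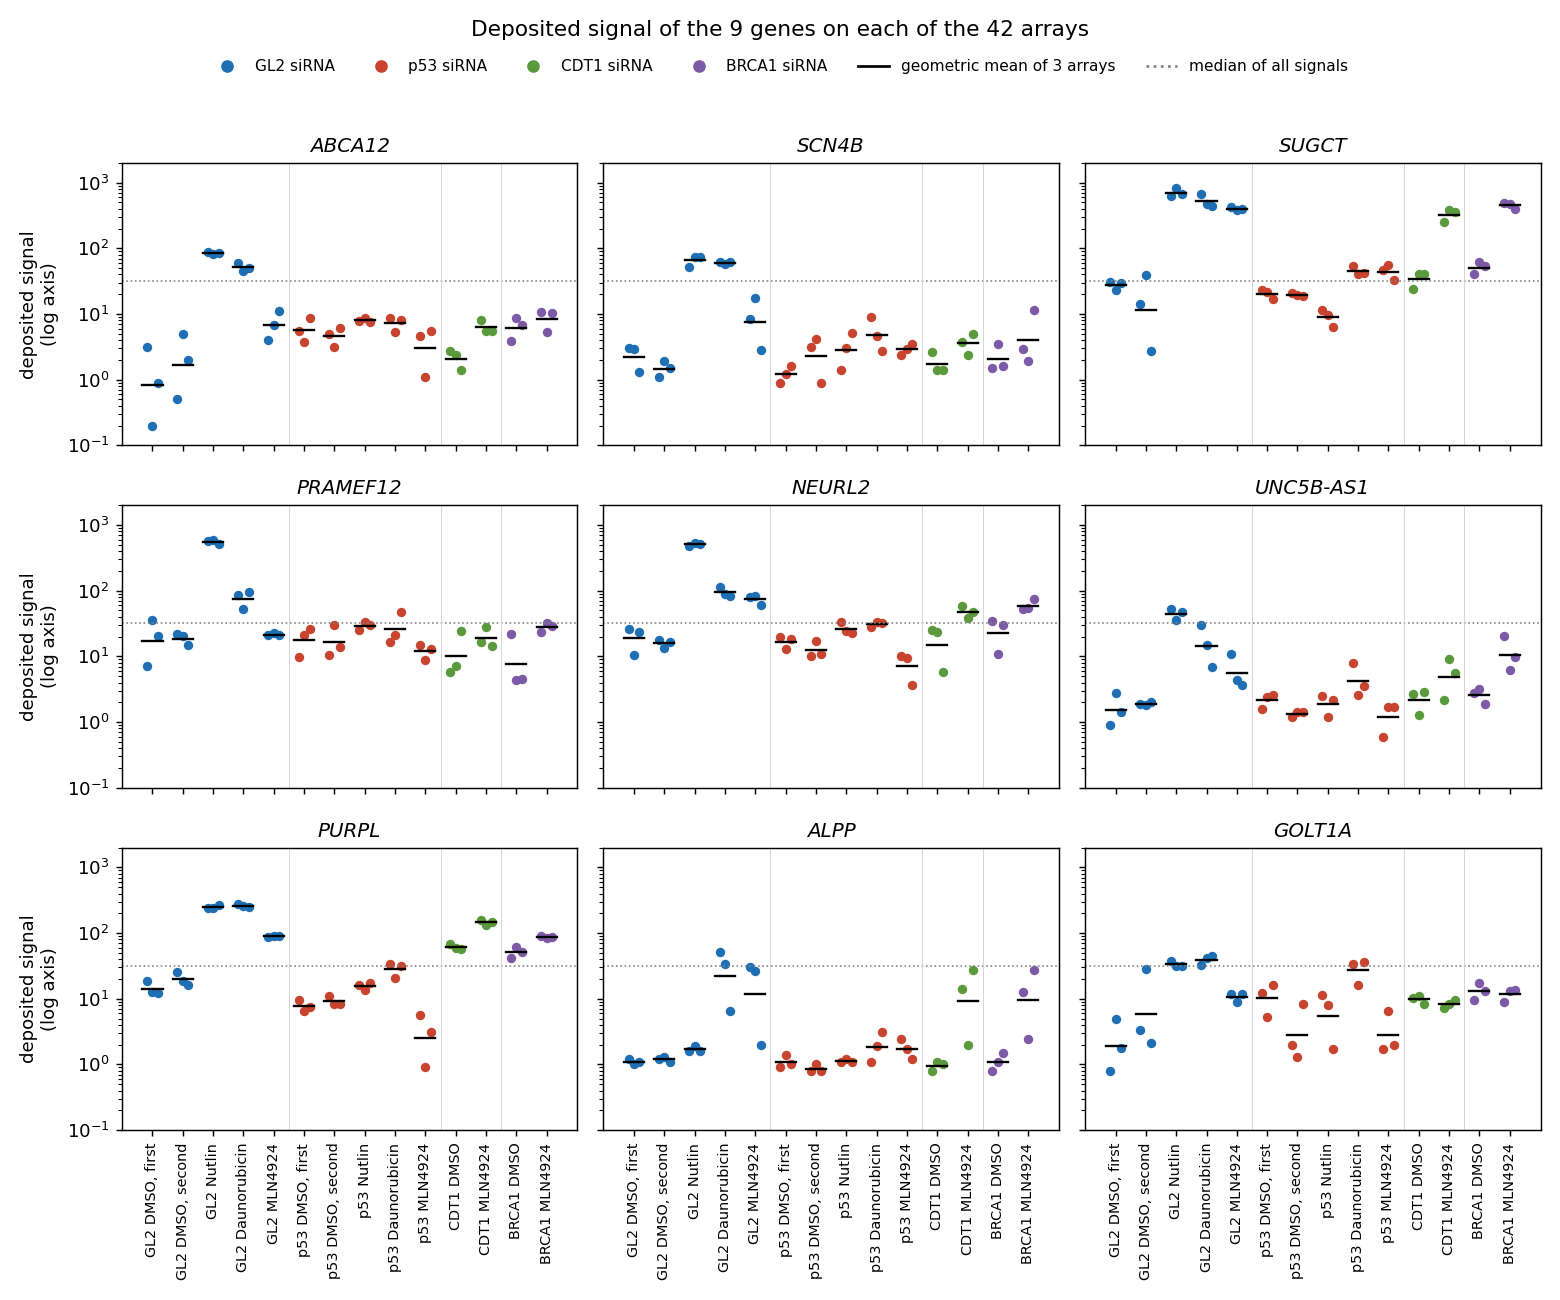
Deposited signal (log axis) of the 9 genes on all 42 arrays, 1 panel a gene, by siRNA and treatment; points are arrays, black bars geometric means of 3 arrays and the dotted line the median of all signals, 31.9. Nutlin and daunorubicin arrays of GL2 cells stand above the dotted line for most genes, while ALPP with Nutlin stays at 1.6 to 1.9 and GOLT1A with daunorubicin reaches 34.2 and 35.7 in p53 siRNA cells too. The array at 34.2 is the library with the low 5′ to 3′ ratio.

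The change with Nutlin was smaller in p53 than in GL2 siRNA cells for every member, by differences of log2 change from -0.57 ± 1.19 for ALPP to -6.20 ± 0.99 for ABCA12. With daunorubicin the differences ran from -1.35 ± 0.61 for NEURL2 to -5.50 ± 0.99 for ABCA12, with GOLT1A at -2.81 ± 1.07. Against the second DMSO sets the daunorubicin difference of GOLT1A turned to 0.71, the only one of these 18 differences to change sign under the alternatives tried, and its Nutlin difference was -1.51 in place of -5.04. These differences use the arrays that chose the genes and were not tested. SUGCT had the second largest difference with Nutlin, -5.87 ± 0.68. For MDM2, itself a p53 target, the differences were -2.42 ± 0.22 with Nutlin and -1.38 ± 0.22 with daunorubicin, and for CDKN1A -1.40 ± 0.24 and -0.04 ± 0.24.

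The stated rule for picking the members used no p53 siRNA array. The set was, however, named p53-dependent and was chosen with earlier results of these data known. A weak response of the members to either drug under p53 siRNA may therefore be built into the choice. Within p53 siRNA cells Nutlin called 8 genes higher and 3 lower against the first DMSO set. Against the second set it called 299 and 443, and with both sets pooled 83 and 145. None of the 9 members passed the test (adjusted p under 0.05 by the Benjamini-Hochberg method across the 19775 genes, with a change of at least 1.5-fold), against 0.0405% of genes called higher. At an unadjusted p under 0.05, limma gave 1 member higher, PURPL (0.89 ± 0.35, adjusted p = 0.403), and 1 lower, SUGCT (-1.33 ± 0.48, adjusted p = 0.356), beside 9.77% of all genes (520 higher and 1413 lower). The 95% interval was -1.07 to 1.79 for ABCA12 and -1.55 to 0.87 for UNC5B-AS1, which leaves out the changes seen in GL2 cells but not a change of 1.5-fold. Of 50 p53 target genes listed, 45 were measured, and 3 were called higher: CDKN1A (1.87 ± 0.17), DDB2, a damage recognition protein (0.83 ± 0.15), and TP53INP1, a stress-induced p53 cofactor (1.09 ± 0.21). This list, like the members, was chosen with earlier results of these data known, a limit on its counts here and below.

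Daunorubicin in p53 siRNA cells called 2 of the 9 members higher, PURPL and SCN4B, against 5.67% of all genes. PURPL changed by 1.80 ± 0.35 (limma, adjusted p = 4.9e-04) and SCN4B by 1.94 ± 0.64 (adjusted p = 0.0322). The SCN4B call was lost without replicate 1 of the treated group, the library with the low 5′ to 3′ ratio (1.37, adjusted p = 0.201), and without replicate 1 (1.76, 0.116) or 2 (1.94, 0.0743) of the first p53 DMSO set. Without the 3 doubted libraries it was 1.37 (adjusted p = 0.0799), where PURPL kept its call and 612 rather than 1121 of all genes were called higher. A fit of these 2 groups alone called neither PURPL (1.80, adjusted p = 0.108) nor SCN4B (0.218), and 31 genes higher in all. GOLT1A (1.35 ± 0.76, adjusted p = 0.251), SUGCT (1.06 ± 0.48, 0.135) and NEURL2 (0.83 ± 0.43, 0.211) did not pass against the first DMSO set. Against the second set GOLT1A changed by 3.19 (adjusted p = 0.00239) and NEURL2 by 1.23 (0.0383), and SCN4B by 1.0 (0.305). Of the 45 p53 targets measured, 22 were higher and 1 lower, led by CDKN1A (2.74 ± 0.17), the stress cytokine GDF15 (3.47 ± 0.25), the growth arrest gene GADD45A (1.95 ± 0.15) and the death receptor FAS (1.67 ± 0.16), or 17 higher and 1 lower without the doubted libraries. The median over the listed targets was 0.68 (0.53 without the doubted libraries) and over the members 0.90, beside 0.01 over all genes.

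**Figure D2:**
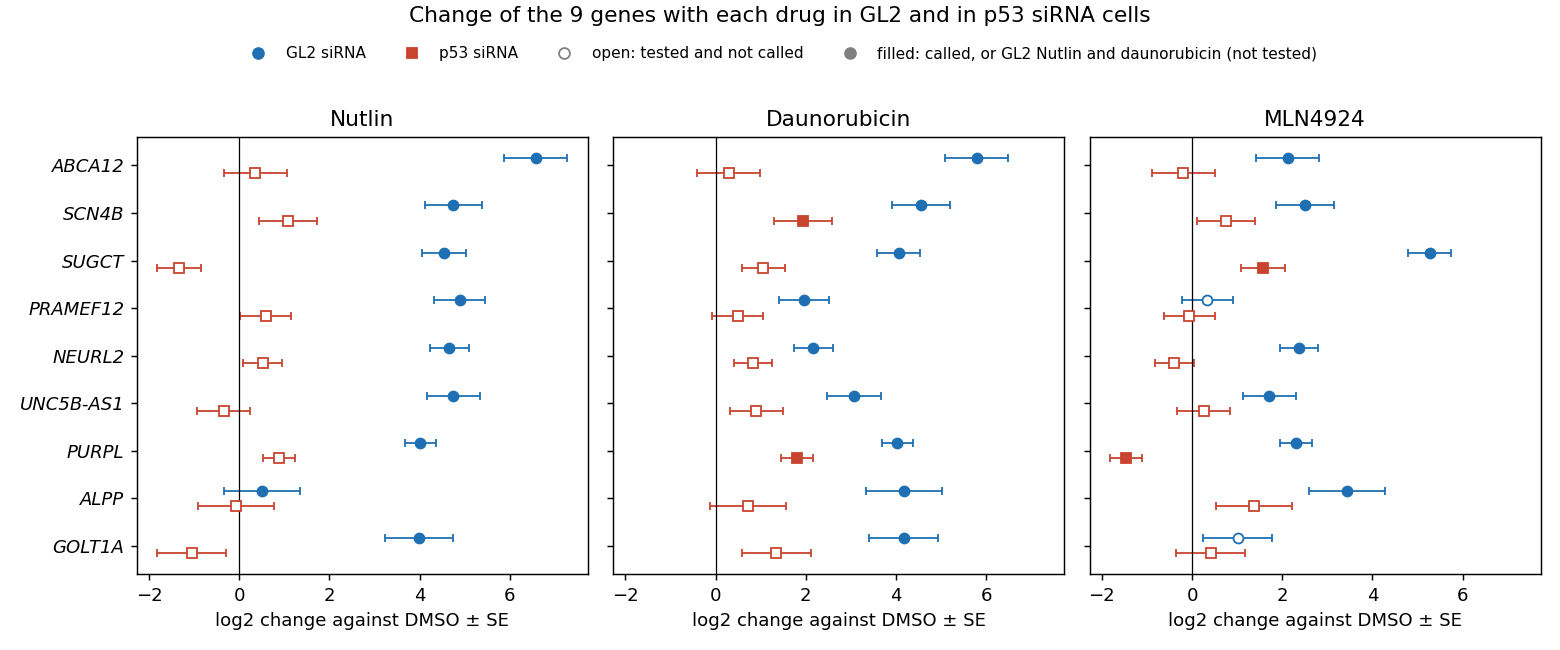
Log2 change against DMSO (points) ± SE (bars) of the 9 genes with Nutlin, daunorubicin and MLN4924 in GL2 (blue circles) and p53 siRNA cells (red squares). Open points were tested and not called; the GL2 changes with Nutlin and daunorubicin chose the genes and were not tested. With MLN4924, SUGCT changed by 5.27 in GL2 and by 1.57 in p53 siRNA cells, and PURPL by 2.30 and -1.46. In p53 siRNA cells the SUGCT call was lost without centring, and all PURPL signals compared were dim.

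MLN4924 had no part in the stated selection rule. The members were, however, chosen with earlier results of these data known. Their counts here and in the later comparisons may therefore not be independent of the choice. MLN4924 was compared with the second DMSO set, because the first GL2 set is the control on which the genes were picked. In GL2 siRNA cells 7 of the 9 members were called higher, against 10.5% of all genes (2083 genes higher and 1443 lower, or 1351 and 1962 without centring). SUGCT rose most, from 14.3, 39.9 and 2.7 to 426.3, 386.9 and 396.9, a change of 5.27 ± 0.48 (limma, adjusted p = 7.36e-10) that was 6.15 without control replicate 2 and 4.23 without control replicate 3, and 4.09 against the first DMSO set. PURPL rose from 26.0, 18.9 and 16.3 to 87.6, 91.2 and 89.3 (2.30 ± 0.35, adjusted p = 8.22e-06), and NEURL2 from 17.6, 13.4 and 16.6 to 80.1, 83.8 and 60.0 (2.37 ± 0.43, 8.82e-05). These 3 groups of treated arrays lay close together and wholly above their controls. ALPP read 30.5, 26.5 and 2.0 against 1.2, 1.3 and 1.1 (3.44 ± 0.84, adjusted p = 0.00238), and SCN4B 8.5, 17.6 and 2.8 against 1.1, 1.9 and 1.5 (2.50 ± 0.64, 0.00361). In both genes the low treated array is replicate 3, which goes against its label, and without it the changes were 4.74 and 3.23. Leaving out replicate 1 or 2 instead gave 2.72 and 2.85 for ALPP, and leaving out replicate 2 gave 1.88 for SCN4B, which were called. The probe set that ALPP shares with ALPG read 24.6, 23.4 and 22.7 against 17.2, 16.2 and 15.3, a much smaller rise without overlap. In a fit of these 2 groups alone neither ALPP (adjusted p = 0.0936) nor SCN4B (0.0668) was called, nor were ABCA12 (0.165) and UNC5B-AS1 (0.0558).

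The remaining calls in GL2 cells depended on single arrays. ABCA12 (4.0, 6.7 and 11.2 against 0.5, 4.9 and 2.0, which overlap) changed by 2.12 ± 0.70 (adjusted p = 0.0234). That call was lost without the 3 doubted libraries (adjusted p = 0.0986), without MLN4924 replicate 2 (2.12, 0.0554) or 3 (1.78, 0.103) or control replicate 1 (1.24, 0.233), and the change was 2.88 (0.00447) without control replicate 2 and 3.25 (6.61e-04) against the first DMSO set. UNC5B-AS1 (11, 4.4 and 3.7 against 1.9, 1.8 and 2.0) changed by 1.71 ± 0.59 (0.0312). It lost its call without MLN4924 replicate 1 (1.21, adjusted p = 0.201) or control replicate 1 (1.71, 0.0693), 2 (1.67, 0.0805) or 3 (1.76, 0.0609). PRAMEF12, among the strongest with Nutlin, read 20.9, 22.7 and 20.8 against 22.0, 20.1 and 14.8 and changed by 0.34 ± 0.56 (95% interval -0.80 to 1.48). GOLT1A changed by 1.01 ± 0.76 (adjusted p = 0.377), but by 2.14 (0.0325) without control replicate 2, whose signal of 28.7 stands beside 3.4 and 2.1, and by 2.70 (0.00787) against the first DMSO set. Of the 45 p53 targets, 36 were higher and 1 lower, led by GDF15 (5.46 ± 0.25), the sestrin SESN1 (2.31 ± 0.13), FAS (2.71 ± 0.16) and SFN (2.05 ± 0.13), a cell cycle restraining member of the 14-3-3 proteins. Without the doubted libraries 37 were higher and none lower by limma. Their median was 1.33, that of the members 2.30 and that of all genes 0.09.

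With p53 siRNA and MLN4924, SUGCT was called higher and PURPL lower, and neither call held under every alternative. SUGCT rose from 20.7, 19.2 and 19.1 to 46.6, 56.4 and 32.5 (1.57 ± 0.48, limma, adjusted p = 0.0105), 1 of 9 members called higher against 17.3% of genes. Without centring it changed by 1.16 (adjusted p = 0.0619) and was not called, and the genes called over the array turned from 3415 higher and 1442 lower to 1102 and 3107. PURPL fell from 10.9, 8.3 and 8.4 to 5.7, 0.9 and 3.1 (-1.46 ± 0.35, adjusted p = 0.00153), 1 of 9 called lower against 7.29% of genes. Its change was -0.70 (0.0312) without the array at 0.9, and -0.08 (0.671) with a pseudocount of 16, where all 6 signals are dim. In a fit of these 2 groups alone PURPL was not called (adjusted p = 0.186) and ALPP was (0.0139). NEURL2, called in GL2 cells, read 10.3, 9.6 and 3.7 against 10.0, 17.3 and 10.9 and did not pass. ALPP read 2.4, 1.7 and 1.2 against 0.8, 1.0 and 0.8 (1.38 ± 0.84, adjusted p = 0.228). SCN4B was called only against the first DMSO set (1.70, adjusted p = 0.0387). Of the p53 targets 16 were higher and 6 lower, among them GADD45A (2.39 ± 0.15) and FUCA1 (-1.69 ± 0.12). The test of the difference between siRNAs called 3 of the 9 members, all with a smaller change in p53 siRNA cells, against 3.32% of genes called lower (1377 higher and 657 lower, or 636 and 1507 without centring). These were PURPL (-3.76 ± 0.50, adjusted p = 9.02e-06), SUGCT (-3.70 ± 0.68, 4.86e-04) and NEURL2 (-2.76 ± 0.61, 0.00296). A fit of these groups alone gave SUGCT an adjusted p of 0.0571, so it was not called, and against the first DMSO sets its difference was -2.55 (0.0174). SUGCT moved to -4.59 without control replicate 2 and -2.66 without control replicate 3 of GL2 cells, and PURPL to -3.0 without MLN4924 replicate 2 of p53 siRNA cells, and these leave-one-out values were called.

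For the other 6 members the difference did not pass. ABCA12 was at -2.31 ± 0.99 (adjusted p = 0.14), and at -3.06 (0.0467) without control replicate 2 of GL2 cells. ALPP was at -2.05 ± 1.19 (0.305), and at -3.36 (0.0463) without replicate 3 of GL2 with MLN4924. Without all 3 doubted libraries ALPP (-3.36, 0.0194) and SCN4B (-2.48, 0.0188) were called as well, for 5 members in all. Against the first DMSO set 5 were called too. PRAMEF12 (95% interval -2.01 to 1.21) and GOLT1A (-2.78 to 1.59) have intervals too wide to say whether the siRNA altered their response. Of the p53 targets 26 were lower and 3 higher in this test (28 and 1 without the doubted libraries), among them the fucosidase gene FUCA1 (-2.81 ± 0.18), TP53INP1 (-4.49 ± 0.29), DDB2 (-2.69 ± 0.22) and SESN1 (-2.29 ± 0.19).

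CDT1 encodes the licensing factor and BRCA1 a homologous recombination protein. In CDT1 siRNA cells MLN4924 raised 4 of the 9 members, against 5.93% of genes (1173 higher and 915 lower, or 806 and 1225 without centring). SUGCT went from 24.0, 40.4 and 40.6 to 254.5, 381.9 and 359.5 (3.38 ± 0.48, limma, adjusted p = 4.77e-06), and PURPL from 68.3, 59.6 and 57.7 to 157.6, 134.0 and 146.2 (1.35 ± 0.35, 0.00726). NEURL2 changed by 1.77 ± 0.43 (0.00394) and was not called without control replicate 3 (1.09, 0.0752). ALPP read 14.2, 2.0 and 27.6 against 0.8, 1.1 and 1.0 (3.38 ± 0.84, 0.00468), with 4.44 without replicate 2 and 2.60 (0.0556, not called) without replicate 3. The probe set it shares with ALPG read 18.4, 24.9 and 26.5 against 2.5, 10.8 and 9.3, a smaller rise without overlap. UNC5B-AS1 changed by 1.27 ± 0.59 (0.162), and by 1.86 (0.0454) without MLN4924 replicate 1. A fit of these 2 groups alone called neither NEURL2 (0.115) nor ALPP (0.0729) but called ABCA12 (1.70, 0.0202). Of the p53 targets 28 were higher and none of the 45 lower by limma at this threshold.

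In BRCA1 siRNA cells 6 of the 9 members rose with MLN4924 (5 without the doubted libraries, where PURPL was not called), against 9.79% of genes (1936 higher and 1413 lower, or 1000 and 1977 without centring). SUGCT went from 40.6, 61.2 and 53.5 to 484.5, 465.9 and 403.0 (3.32 ± 0.48, limma, adjusted p = 3.26e-06). PRAMEF12 was called here, at 23.2, 32.6 and 29.2 against 21.8, 4.4 and 4.6 (2.06 ± 0.56, 0.0058), a rise to a level it holds in other groups under DMSO. It was at 2.85 without control replicate 1 and lost its call without control replicate 2 (1.66, 0.0525), as did NEURL2 (1.59 ± 0.43, 0.006, and 1.06, 0.088). UNC5B-AS1 rose from 2.8, 3.2 and 1.9 to 20.1, 6.2 and 9.7 (2.23 ± 0.59, 0.00509). ALPP rose from 0.8, 1.1 and 1.5 to 12.8, 2.4 and 27.4 (3.29 ± 0.84, 0.00366), and its change was 4.29 without replicate 2 and 2.50 without replicate 3, the library that goes against its label. The probe set it shares with ALPG read 28.7, 17.0 and 18.4 against 3.7, 21.0 and 21.4, which overlap. PURPL changed by 0.97 ± 0.35 (0.0408) and lost its call without control replicate 1 or 3 or without any single MLN4924 replicate (0.86 to 1.01, adjusted p = 0.0719 to 0.131). A fit of these 2 groups alone called none of PRAMEF12 (0.106), NEURL2 (0.09) and ALPP (0.0715). Of the p53 targets 25 were higher and 1 lower, or 21 and 2 without the doubted libraries.

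**Figure D3:**
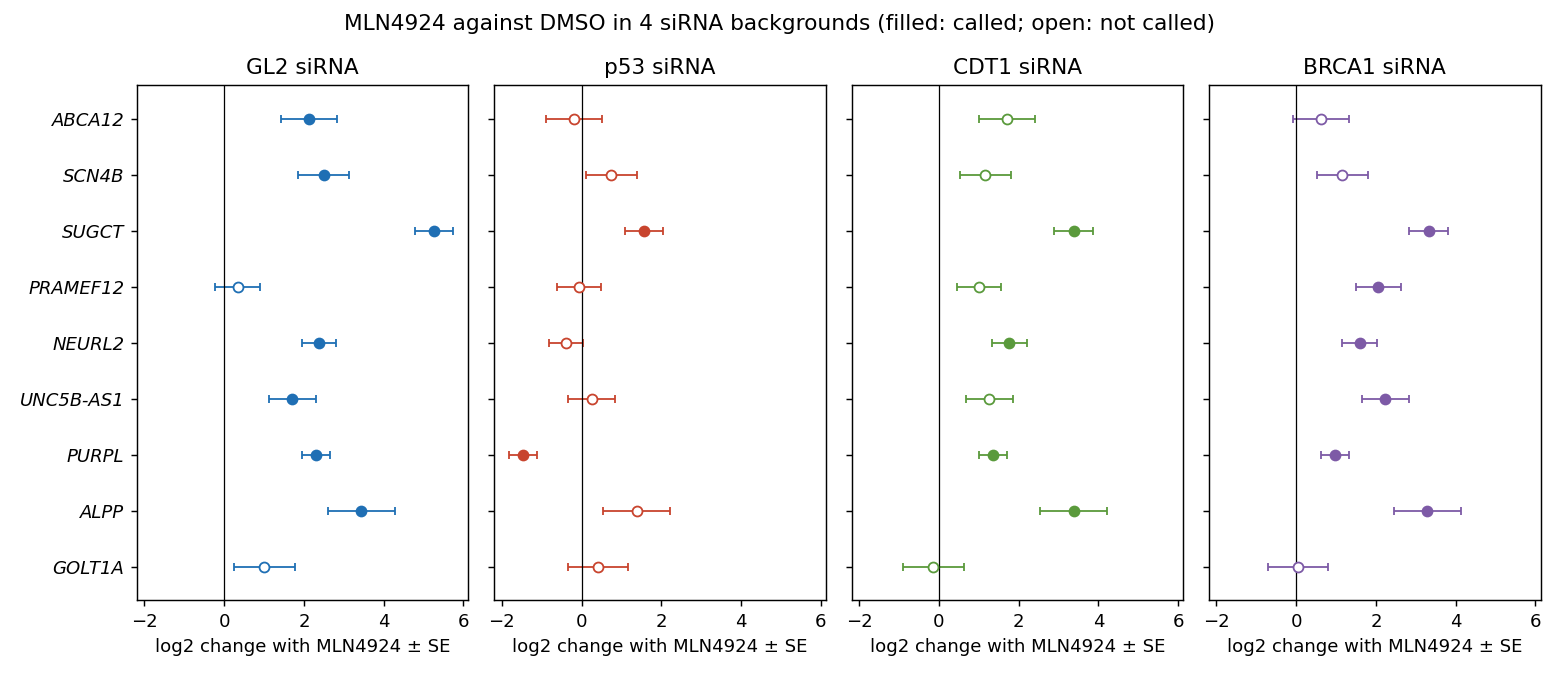
Log2 change with MLN4924 against DMSO (points) ± SE (bars) of the 9 genes in GL2, p53, CDT1 and BRCA1 siRNA cells; filled points were called and open ones were not. SUGCT lies at 5.27, 1.57, 3.38 and 3.32, and PURPL is the only member called lower, in p53 siRNA cells.

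Without a drug, PURPL and SUGCT were the members called against the second GL2 DMSO set, and the choice of set changed these calls. PURPL was lower in p53 than in GL2 siRNA cells, at 10.9, 8.3 and 8.4 against 26.0, 18.9 and 16.3 of the second DMSO set (-1.21 ± 0.35, limma, adjusted p = 0.0279), 1 of 9 members against 3.38% of genes called lower (490 higher and 669 lower, or 711 and 542 without centring). That call did not survive leaving out GL2 replicate 1 (-1.02, 0.132) or 2 (-1.26, 0.0651) or p53 replicate 2 (-1.10, 0.11) or 3 (-1.17, 0.0854), or the use of the first DMSO sets (-0.90, 0.26), against which ABCA12 was called higher (2.76, 0.0262). SUGCT was called there without GL2 replicate 2 (1.58, 0.0153) and turned in sign without GL2 replicate 3 (-0.34, 0.678). CDT1 siRNA raised PURPL to 68.3, 59.6 and 57.7 (1.54 ± 0.35, 0.00382) and SUGCT to 24.0, 40.4 and 40.6, which overlaps the GL2 arrays (1.48 ± 0.48, 0.0427). These are 2 of 9 members against 3.21% of genes (635 higher and 821 lower, or 891 and 609 without centring). The SUGCT call was lost without GL2 replicate 1 (1.63, 0.0584) or 3 (0.44, 0.503) or CDT1 replicate 2 (1.37, 0.142) or 3 (1.34, 0.136), and against the first DMSO set (0.30, 0.821), and the change was 2.36 without GL2 replicate 2. Against the first DMSO set 2 members were still called with CDT1 siRNA, SUGCT not among them.

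With BRCA1 siRNA and no drug, SUGCT (40.6, 61.2 and 53.5) was 2.07 ± 0.48 higher than in GL2 cells (limma, adjusted p = 0.00362), and PURPL (41.8, 61.2 and 50.9) was 1.26 ± 0.35 higher (0.0153). These are 2 of 9 members against 4.33% of genes (857 higher and 919 lower, or 1095 and 706 without centring). SUGCT was at 2.95 without GL2 replicate 2 and 1.03 (0.0484) without GL2 replicate 3, the array at 2.7, and 0.88 (0.282, not called) against the first DMSO set. That set called ABCA12 (2.90, 0.00584) and GOLT1A (2.75, 0.0163) higher with BRCA1 siRNA, as did both sets pooled (2.34, 0.00734, and 1.90, 0.0478). In fits of the compared groups alone SUGCT was not called with CDT1 (adjusted p = 0.384) or BRCA1 siRNA (0.244). PURPL lost its call without GL2 replicate 2 (1.21, 0.0564) or 3 (1.13, 0.0763) or BRCA1 replicate 2 (1.13, 0.0735). ABCA12 changed by 1.78 ± 0.70 (0.0936) and was called without GL2 replicate 2 (2.54, 0.0265), and PRAMEF12, at -1.38 ± 0.56 (0.106), was called lower without BRCA1 replicate 1 (-2.16, 0.00993). Of the p53 targets 12 of 45 were lower with p53 siRNA, 8 higher and 1 lower with CDT1 siRNA and 20 higher with BRCA1 siRNA, with CDKN1A at -2.31 ± 0.17, 1.39 ± 0.17 and 1.84 ± 0.17. The p53, CDT1 and BRCA1 comparisons share the second GL2 DMSO set, and the MLN4924 comparison in GL2 cells uses it as well.

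Genes beside the members followed them in some places only. From the RefSeq gene list, 21 pairs of a member and an overlapping or nearest measured gene were formed, and the values of these neighbours with Nutlin and daunorubicin in GL2 cells are again a description. SPATA25, which overlaps NEURL2, went from 1.0, 1.3 and 2.0 to 9.0, 22.2 and 23.0 with Nutlin (3.47 ± 0.40) and stayed at 1.8, 2.6 and 1.7 with daunorubicin. CTSA, the lysosomal protease gene on the other side of NEURL2, changed by 0.04 ± 0.23 with Nutlin. PRAMEF11, the neighbour and close relative of PRAMEF12, read 249.0, 217.9 and 250.5 with Nutlin against 54.0, 38.6 and 55.6 (2.17 ± 0.25). Whether the probe sets of PRAMEF11 and PRAMEF12, or those of SPATA25 and NEURL2, detect each other's transcripts was not tested.

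SCN2B, next to SCN4B and another auxiliary sodium channel subunit, rose in GL2 cells by 2.14 ± 0.69 with Nutlin and 1.58 ± 0.69 with daunorubicin. Its change with Nutlin under p53 siRNA was 2.38 ± 0.69 (adjusted p = 0.249), and with daunorubicin it was called higher (2.23 ± 0.69, limma, adjusted p = 0.0224), at 36.9, 4.4 and 32.6 against 2.5, 4.2 and 4.2. Without the doubted libraries SCN2B changed by 1.56 (adjusted p = 0.171) and was not called. UNC5B, the netrin receptor gene that UNC5B-AS1 overlaps, read 162.4, 148.9 and 163.2 with Nutlin against 126.1, 96.5 and 120.4 in GL2 cells, a change of 0.35 ± 0.20 beside 4.75 ± 0.59 for its antisense RNA. BARD1, the partner protein of BRCA1 whose gene lies beside ABCA12, fell by 2.80 with Nutlin and by 2.50 with daunorubicin in GL2 cells, opposite to ABCA12. With MLN4924 in GL2 cells 3 of the 21 neighbours were called higher, against 10.5% of all genes. Among them were the neighbours of GOLT1A. KISS1, a metastasis suppressor gene, changed by 3.12 ± 0.65 (limma, adjusted p = 4.42e-04) and PLEKHA6 by 3.17 ± 0.75 (0.00179). GOLT1A itself was not called against this second DMSO set, but was called against the first. KISS1 was also called in p53 (3.76 ± 0.65), CDT1 (2.37 ± 0.65) and BRCA1 siRNA cells (5.21 ± 0.65). Without the doubted libraries KISS1 was at 3.47 in GL2 and 4.94 in BRCA1 siRNA cells and PLEKHA6 at 3.16, all called. ALPG, the neighbour and near copy of ALPP, read 71.4, 91.3 and 78.3 with daunorubicin in GL2 cells against 55.0, 69.4 and 73.0 (0.12 ± 0.22).

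**Figure D4:**
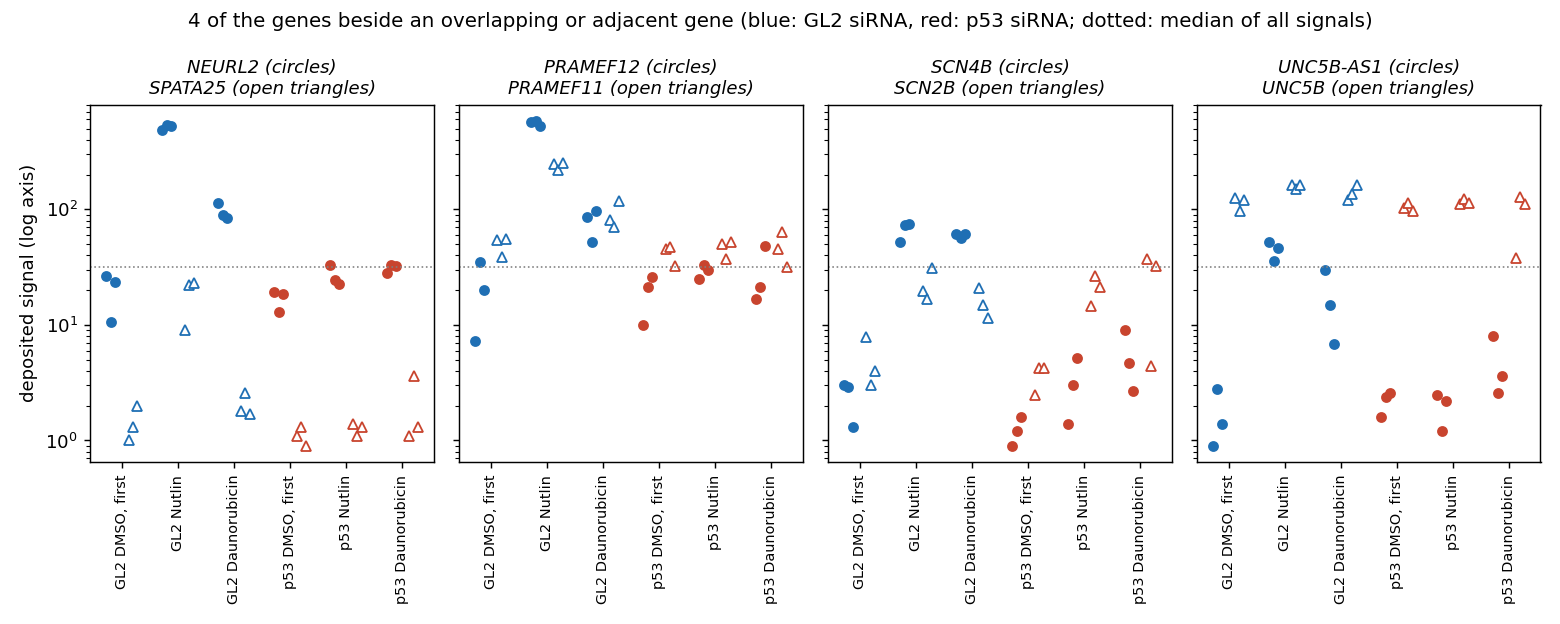
Deposited signal (log axis) on each array for NEURL2, PRAMEF12, SCN4B and UNC5B-AS1 (circles) and a gene overlapping or beside each (open triangles), in GL2 (blue) and p53 siRNA cells (red) with DMSO of the first set, Nutlin or daunorubicin; the dotted line is the median of all signals. SPATA25 and PRAMEF11 rise with Nutlin to 23.0 and 250.5 at most in GL2 cells, where UNC5B stays near its control while UNC5B-AS1 rises.

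Relatives by family or pathway were read against the share of all genes called. Of 7 other genes of lysine breakdown, none was called higher with MLN4924 in GL2 cells by limma, and 2 were called lower (7.3% of all genes), AASS (-0.77 ± 0.24), which acts on lysine itself, and DHTKD1 (-0.67 ± 0.17), which makes glutaryl-CoA, while SUGCT rose by 5.27. Without the doubted libraries DHTKD1 was at -0.53, short of 1.5-fold. Of 10 measured relatives of ABCA12, ABCA13 (3.73 ± 0.75, adjusted p = 6.36e-04) and ABCA5 (0.68 ± 0.24, 0.0486) were called higher with daunorubicin in p53 siRNA cells (5.67% of all genes), where ABCA12 changed by 0.29 ± 0.70. Without the doubted libraries ABCA13 was at 3.36 (adjusted p = 1.32e-04) and ABCA5 at 0.26 (0.443, not called). Of 7 genes of netrins and their receptors, NTN1 (1.12 ± 0.32) and NTN4 (0.92 ± 0.23), which encode netrins, were called higher with MLN4924 in GL2 cells (10.5% of all genes). Without the doubted libraries they were at 1.43 and 0.66, both called. NTN4 was also called in the test of the difference between p53 and GL2 siRNA (-1.09 ± 0.33, adjusted p = 0.0286). PRAME read 723.3, 694.0 and 735.4 in the first GL2 DMSO set and 606.9, 641.8 and 620.3 with Nutlin, opposite to PRAMEF12. GOLT1B, the paralogue of GOLT1A, changed by -0.26 ± 0.12 with Nutlin and -0.35 ± 0.12 with daunorubicin in GL2 cells.

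Over the 14 group means, the members varied together to unequal degrees, which is given as a description because the groups share arrays, scale and the drugs that chose the genes. NEURL2 and UNC5B-AS1 were the closest pair (Pearson r = 0.96), and PRAMEF12 and ALPP the most distant (0.25). PURPL followed CDKN1A most closely of all members (0.95, against 0.48 for PRAMEF12). Among 13888 other genes that rise above the median signal in some group, those most like PURPL were DDB2 (0.968) and SESN1 (0.966). The nearest to PRAMEF12 was CLCA2 (0.954), which changed by 4.55 with Nutlin and 2.04 with daunorubicin in GL2 cells, and the nearest to UNC5B-AS1 was the carboxylesterase CES2 (0.966). NEURL2 was closest to NADSYN1 and LRP10 (0.967 each), SUGCT to CCDC90B (0.968) and ITPKC (0.963), and GOLT1A to PLBD2 (0.952). SCN4B was closest to S1PR4 (0.92) and ABCA12 to GPR85 (0.913). For ALPP, AMT (0.89) and CSTA (0.889) came closest, and CSTA changed by 2.36 with Nutlin, 3.75 with daunorubicin and 3.63 with MLN4924 in GL2 cells.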

How the data were processed

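The authors deposited 1 signal intensity per probe set and array on a linear scale, made with Expression Console of Affymetrix, per the submitters' processing notes; the version, algorithm and build are not given in the sources used here. The mean after trimming 2% at each end was 150.0 on every array. Of 54675 probe sets, 41091 carried 1 gene symbol in GEO's platform annotation and 1801 several, which were left out; for each of 19775 genes the probe set of highest mean log2 signal was kept. The 147 values of 0 were raised to 0.1 before log2, and arrays were centred on their medians over genes (5.63 to 6.35). Tests used limma 3.58.1 in R 4.3.3 (lmFit, contrasts.fit, eBayes) in 1 fit of 14 groups, checked on simulated data. Calls needed 1.5-fold and an adjusted p under 0.05 (Benjamini-Hochberg, all genes). The labels leave the pairing of DMSO sets with drugs open: 113 genes that differ between the sets placed the Nutlin and daunorubicin arrays at -0.13 to 0.23 on a scale from 0 (first set) to 1 (second), MLN4924 arrays at 0.12 to 0.42, and CDT1 and BRCA1 siRNA DMSO arrays at 0.44 to 0.75. The first set was the control for Nutlin and daunorubicin; MLN4924 and siRNA comparisons used the second, because the first GL2 set had served to choose the members. The members and gene lists were chosen with earlier results of these data known. Named are the members, their neighbours and relatives, CDKN1A and MDM2, up to 4 p53 list genes a comparison by moderated statistic, and the 2 genes most like each member. Python 3.11.15 and pandas 2.3.3 made the tables. The number of arrays limits the precision. Alternatives are in the closing section; those for the untested differences, and values of other genes without the doubted libraries, were chosen after seeing the data.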

Additional observations from a re-analysis of the deposited data

Results flagged for a closer look

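The change with MLN4924 differed between p53 and GL2 siRNA cells, by the limma test of the difference, for PURPL (-3.76), SUGCT (-3.70) and NEURL2 (-2.76). SUGCT was not called when these groups were fitted alone (adjusted p = 0.0571). SUGCT signals also lay in opposite directions from DMSO with Nutlin, up on all 3 arrays of GL2 cells and down on all 3 of p53 siRNA cells. This difference of -5.87 was not tested, because the GL2 arrays chose the gene. The lower signal in p53 siRNA cells did not pass its own test (-1.33 ± 0.48, limma, adjusted p = 0.356). All SUGCT signals compared there were dim.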

How the results depend on the processing

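Counts of members called changed by over 1.5 times in these cases. An alternative left out genes of low signal and tested 9887 of the 19775 genes. Its cut differs from the signal level that defines dim above. SUGCT was the only member it kept, so counts fell to 1 for MLN4924 in GL2, p53, CDT1 and BRCA1 siRNA cells. They fell to 1 too for the MLN4924 difference between siRNAs, and for CDT1 and BRCA1 siRNA under DMSO. They fell to 0 for daunorubicin in p53 siRNA cells and for p53 siRNA under DMSO. In fits of only the groups compared, counts were 0 for daunorubicin in p53 siRNA cells, 3 for MLN4924 in GL2 and in BRCA1 siRNA cells, 2 for p53 siRNA and 1 each for CDT1 and BRCA1 siRNA under DMSO. A pseudocount of 16 gave medians of 2.44 for Nutlin and 1.51 for daunorubicin in GL2 cells, and counts of 1 for MLN4924 in p53 siRNA cells, 0 for p53 siRNA and 1 for CDT1 siRNA under DMSO. Scaling without centring gave 1 for MLN4924 in p53 siRNA cells. The other DMSO set gave a median of 3.45 for daunorubicin in GL2 cells and 5 members for the MLN4924 difference; both sets pooled gave 2 for p53, 1 for CDT1 and 4 for BRCA1 siRNA under DMSO. Array weights gave 5 for the MLN4924 difference and 4 for BRCA1 siRNA. Without the 3 doubted libraries the MLN4924 difference called 5 and daunorubicin in p53 siRNA cells 1. Leaving out each array in turn gave 1 to 2 for daunorubicin in p53 siRNA cells, 0 to 1 for p53 siRNA, 1 to 2 for CDT1 siRNA and 1 to 3 for BRCA1 siRNA under DMSO. Among changes that were called, none changed sign under these alternatives. Uncalled or untested ones that did were ALPP with Nutlin in GL2 cells (-0.05 with a pseudocount of 16), GOLT1A in its daunorubicin difference between p53 and GL2 siRNA (0.71 against the other DMSO set, an alternative chosen after seeing the data), GOLT1A with Nutlin in p53 siRNA cells (0.79 against the other set), and under p53 siRNA GOLT1A (0.60 with pooled sets, 2.37 with the other) and SUGCT (-0.45 with the other set; -0.34 to 1.58 leaving out arrays). Of 90 tested member changes, 32 were smaller than their standard error; 58 of their 582 alternative values changed sign, none of them called. The replicate numbers did not pair the arrays: deviations of same-numbered arrays correlated at -0.07 to 0.11. The replicate block left every count of members as it was, for example 7 with MLN4924 in GL2 cells, and is reported because the labels number the replicates. Low signal over background limits the folds of dim members, and 3 arrays a group limit all.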
